A study of Homo sapiens with 15 samples.

Results

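The insulin-like growth factor (IGF) axis was followed in MRC5, a human lung fibroblast line, and in H196, a non-neuroendocrine (non-NE) small cell lung cancer (SCLC) line, through the 10 genes IGFBP2, IGFBP3, IGFBP4, IGFBP5, IGFBP6, IGFBP7, IGF2, IGF1R, IGF2R and IRS2. The genes were taken from the tables by symbol. The MRC5 table lists all 10 among 16382 genes, and the H196 table lists 9 among 16076 genes. IGFBP7 was not analysed here in H196. RNA sequencing covered MRC5 cells cultured separately (MRC5_Mo), MRC5 cells co-cultured with the neuroendocrine (NE) SCLC line H69 (MRC5_coH69) or with H196 (MRC5_coH196), H196 cells cultured separately (H196_Mo) and H196 cells co-cultured with MRC5 (H196_Co), with 3 libraries per group and 15 in all. Every culture lasted a week, no group carried a genetic change or drug treatment, and the partner cells sat on a porous insert, so that both lines shared medium but not a surface. Each line is a single stock, and nothing in the labels says that the libraries came from separately started cultures, so the p-values measure the spread between these libraries, which may be technical.

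IGF1 and IGF2 are secreted growth factors that signal through IGF1R, a receptor tyrosine kinase whose docking proteins IRS1 and IRS2 pass the signal to PI3K and AKT. IGF2R binds IGF2 and carries it to the lysosome without signalling as a kinase. The IGF binding proteins (IGFBPs) hold IGFs outside the cell, where proteases such as PAPPA release them, and fibroblasts of the lung are a known source of several IGFBPs.

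The promoters of 4 members are shown because the genes stand at different points of the results. IGFBP3 had the largest rise, IGF1R rose less, IGF2R stayed under the fold limit in every comparison, and IGFBP5 stood at a high level beside IGFBP3 but did not pass the fold limit with H196. Each line gives the 250 bases before the RefSeq gene start (GRCh38.p14), 5′ to 3′ on the strand of the gene, and capitals mark ACGTG or GCGTG, the core letters of hypoxia response elements, on either strand (read as CACGT or CACGC when on the other strand).
IGFBP3, chr7:45921273-45921522, minus strand: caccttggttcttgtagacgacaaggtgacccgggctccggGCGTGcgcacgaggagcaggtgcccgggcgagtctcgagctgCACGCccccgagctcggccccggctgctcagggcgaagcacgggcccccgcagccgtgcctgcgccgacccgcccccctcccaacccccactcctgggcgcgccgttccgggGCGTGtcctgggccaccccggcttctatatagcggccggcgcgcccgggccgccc
IGF1R, chr15:98648289-98648538, plus strand: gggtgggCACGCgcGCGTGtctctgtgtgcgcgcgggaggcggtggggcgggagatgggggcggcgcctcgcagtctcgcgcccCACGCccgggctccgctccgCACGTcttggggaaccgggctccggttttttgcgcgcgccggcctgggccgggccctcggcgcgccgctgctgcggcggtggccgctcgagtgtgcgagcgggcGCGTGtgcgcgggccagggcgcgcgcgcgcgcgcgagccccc
IGF2R, chr6:159968832-159969081, plus strand: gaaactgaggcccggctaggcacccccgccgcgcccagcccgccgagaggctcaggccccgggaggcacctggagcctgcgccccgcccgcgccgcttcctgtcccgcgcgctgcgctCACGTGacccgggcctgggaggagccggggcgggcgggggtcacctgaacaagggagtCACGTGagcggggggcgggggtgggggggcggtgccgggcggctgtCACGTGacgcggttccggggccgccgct
IGFBP5, chr2:216695550-216695799, minus strand: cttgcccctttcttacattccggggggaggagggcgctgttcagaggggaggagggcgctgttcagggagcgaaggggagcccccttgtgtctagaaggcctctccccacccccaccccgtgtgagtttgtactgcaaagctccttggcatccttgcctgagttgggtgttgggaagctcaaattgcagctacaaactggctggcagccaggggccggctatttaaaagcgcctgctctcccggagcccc
Of the 10 members, 8 have a promoter in the RefSeq table, and 4 of them hold a match, which are IGFBP2, IGFBP3, IGF1R and IGF2R. Counted by window, 4 of 10 hold a match. IGFBP2 has windows at start sites 1, 2 and 3, and only that at 2 holds a match, to GCGTG. Across 34788 windows of the same length, 43.1% hold a match to either motif, 18.5% one to ACGTG and 32.2% one to GCGTG. The IGFBP3 window holds 3 GCGTG matches and a GC content of 76.0%, and the IGF1R window holds 1 ACGTG and 4 GCGTG matches. IGF2R carries 3 copies of CACGTG, each of which counts as ACGTG on both strands, a hexamer found in 6.31% of all windows. No match was found in the windows of IGFBP4, IGFBP5, IGFBP6 and IRS2. A match describes letters and not a bound site.

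In the authors' annotation (GRCh38.p13), IGFBP3 spans chr7:45912245-45921272 and lies 18.6 kb from IGFBP1. IGFBP2 (chr2:216632828-216664436) and IGFBP5 (chr2:216672105-216695552) are neighbours with 7.67 kb between them. The other members lie apart, IGFBP4 at chr17:40442588-40457725, IGFBP6 at chr12:53097667-53102340, IGFBP7 at chr4:57030773-57110385, IGF2 at chr11:2129117-2149793, IGF1R at chr15:98648535-98964530, IGF2R at chr6:159969082-160111504 and IRS2 at chr13:109752695-109788565.

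Libraries held 18476890 to 19170560 counts in MRC5 and 16073597 to 17358349 counts in H196. All 10 fibroblast markers were present in every MRC5 group, and H196 held at most 3.80 CPM (counts scaled by the library total) of them. The 8 NE markers summed to 25.0 to 27.6 CPM in H196_Mo and 26.4 to 27.6 CPM in H196_Co. Of these, INSM1, NCAM1 and GRP had 3 counts or fewer. The 4 non-NE SCLC markers summed to 1028 to 1128 CPM in H196. In the MRC5 groups they summed to 3451 to 4279 CPM, so they are not particular to H196. The fibroblast markers summed to 33960 to 37640 CPM in MRC5_Mo, 38550 to 39350 CPM in MRC5_coH69 and 20960 to 21910 CPM in MRC5_coH196, and their part in the results was not tested. RNA of the partner line was looked for with 99 genes of H196 that MRC5_Mo lacks. They summed to 9.50 to 10.4 CPM in MRC5_Mo, 8.68 to 10.7 CPM in MRC5_coH69 and 23.9 to 62.4 CPM in MRC5_coH196, at most 0.777% of their level in H196_Mo. Each member listed in both tables had a lower FPKM in every H196 library than in any MRC5 library.

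**Figure D1:**
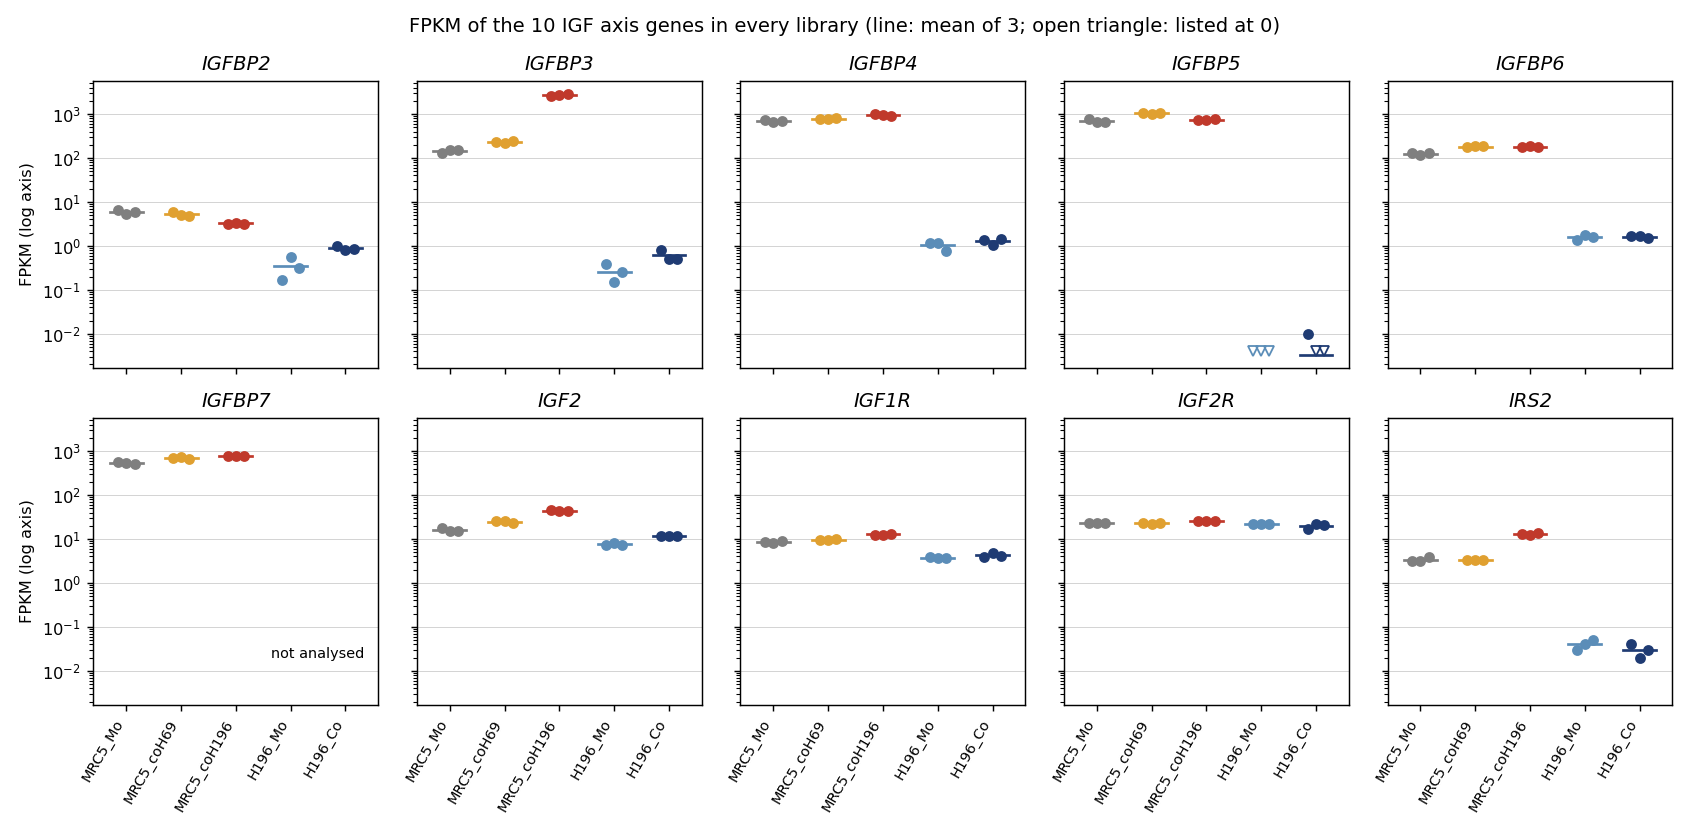
FPKM of each gene in every library on a log axis, by culture group, with points for libraries and lines for the mean of 3. The 3 MRC5_coH196 libraries stand at 2618 to 2852 FPKM for IGFBP3, above 131 to 155 FPKM in MRC5_Mo, while IGFBP5 in H196 is listed at 0 in all but 1 library.

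The binding proteins were among the abundant messages of MRC5_Mo. FPKM, which divides by gene length and so allows genes to be compared, averaged 694 ± 30.5 (SD, n = 3) for IGFBP4, 693 ± 57.2 for IGFBP5, 539 ± 21.1 for IGFBP7, 146 ± 12.9 for IGFBP3, 126 ± 5.33 for IGFBP6 and 5.96 ± 0.623 for IGFBP2. IGFBP4 and IGFBP5 ranked 128 and 130 among the 16382 genes of the table, and their libraries overlapped. Levels of the ligand and receptor genes were far lower, at 22.9 ± 0.335 FPKM for IGF2R, 16.2 ± 1.43 for IGF2, 8.56 ± 0.352 for IGF1R and 3.37 ± 0.407 for IRS2. IGF1 had 1 to 5 counts per MRC5_Mo library, which left IGF2 as the ligand message with a measurable level in MRC5.

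H196 cells carried little of the messages of IGFBP2 to IGFBP6. IGFBP6 averaged 1.56 ± 0.230 FPKM in H196_Mo, IGFBP4 1.04 ± 0.222, IGFBP2 0.343 ± 0.192 and IGFBP3 0.260 ± 0.115 FPKM, each from 3 to 39 counts per library. IGFBP5 had 0 counts in all 3 H196_Mo libraries. Set against the limit that a count of 0 allows (3 counts in each library, at most 0.187 CPM), the lowest MRC5_Mo library, at 3867 CPM, was at least 20720-fold higher. IGF2R stood at 21.7 ± 0.300 FPKM, IGF2 at 7.58 ± 0.549 and IGF1R at 3.72 ± 0.154. These receptor and ligand genes were much closer between the lines than IGFBP2 to IGFBP6.

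In the comparison of MRC5_Mo with H196_Mo, fitted on all 15 libraries, 8 of 9 members were differentially expressed genes (DEGs), all higher in MRC5, where 61.7% of all genes were called and 30.2% were called higher. A DEG here has a Benjamini-Hochberg adjusted p under 0.05 over all genes tested and an absolute log2 fold change above 0.58 in edgeR's quasi-likelihood test. Fitted log2 fold changes were 9.82 for IGFBP4 (SE 0.10, edgeR adjusted p = 4.56e-33) and 9.59 for IGFBP3. It was 6.76 for IGFBP6, 6.71 for IRS2 and 4.33 for IGFBP2, and reached 1.52 for IGF2 and 1.14 for IGF1R. In H196_Mo, IRS2 had 4.04 to 6.95 counts, IGFBP2 3 to 11 and IGFBP3 6 to 14, so the size of their fold changes rests on few counts. With limma on log2(FPKM + 1) it was 2.07 for IRS2, 2.38 for IGFBP2 and 6.87 for IGFBP3. With 10 counts required in every library, IRS2, IGFBP2 and IGFBP3 were not tested. IGF2R differed by 0.52 (SE 0.058, edgeR adjusted p = 2.90e-09), under the fold limit, and by 0.08 with limma on log2(FPKM + 1) (adjusted p = 0.249) and 0.09 with library totals alone (edgeR adjusted p = 0.13). Library totals alone moved the median of all genes to -0.45 and the split of DEGs from 4100 higher and 4279 lower to 2874 and 6126, and IGF1R then differed by 0.72, while all 8 members kept their calls. IGFBP5 is counted as called, but its fitted fold change rests on counts of 0 and only the lower bound above is given. Cell line, table and culture medium (by the authors' methods MEM for MRC5 and RPMI for H196) cannot be told apart in this comparison. The authors did not name the medium of the co-cultures.

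**Figure D2:**
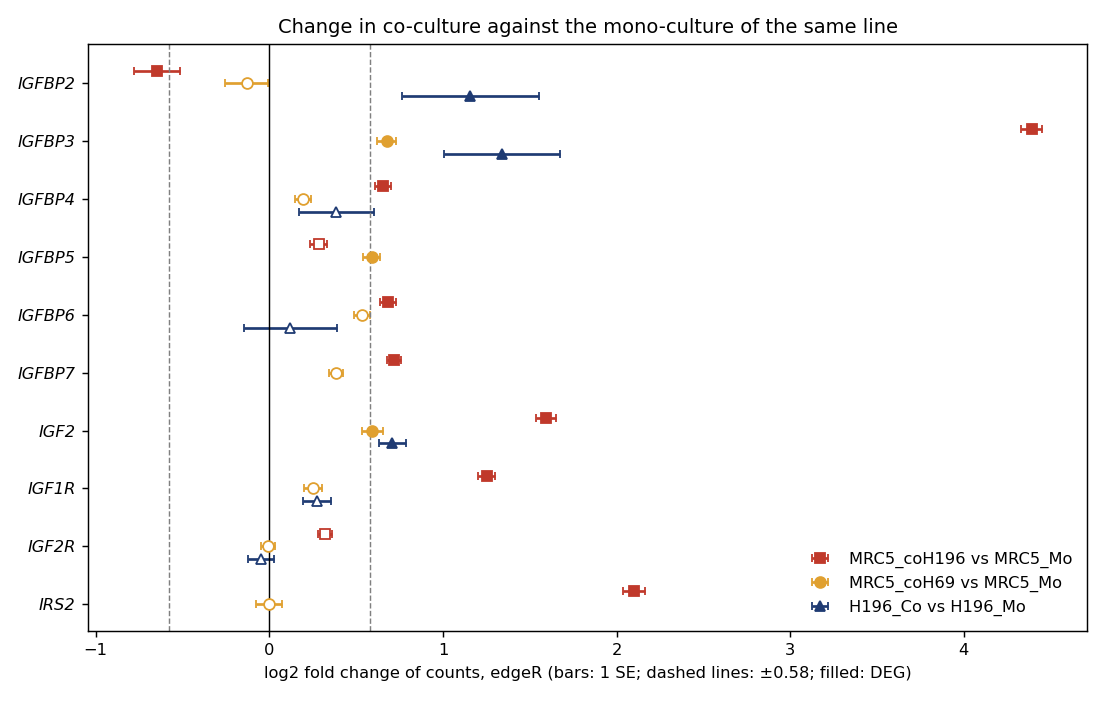
Log2 fold change of counts for each gene in co-culture against the mono-culture of the same line, with bars of 1 SE and filled symbols for DEGs. IGFBP3 with H196 lies at 4.39, followed by IRS2 at 2.1, while IGFBP2 points down in MRC5 with H196 and up in H196_Co.

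Most of the members changed in MRC5 cultured with H196. They were chosen with earlier results of these data known, so setting them beside all genes is descriptive only. In MRC5_coH196 against MRC5_Mo, 7 members rose (IGFBP3, IRS2, IGF2, IGF1R, IGFBP7, IGFBP6 and IGFBP4) and IGFBP2 fell, 8 of 10 in all, where 31.9% of the 12819 genes tested were DEGs, 17.2% higher and 14.7% lower. The median log2 fold change of the 10 members was 0.70 against -0.003 for all genes tested. FPKM values of both groups were fully apart for 9 of 10 members, and for 75.9% of all genes. In bulk RNA, fewer cells of a type and less RNA per cell cannot be told apart.

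The scaling between libraries bears on the smaller changes. TMM factors, which edgeR uses to scale libraries, were 0.916 to 0.941 in MRC5_coH196 and 1.04 to 1.05 in MRC5_Mo. With library totals alone the median of all genes moved to -0.18, the DEGs of all genes split into 1530 higher and 2978 lower in place of 2207 and 1885, and 5 members were DEGs (IGFBP2, IGFBP3, IGF2, IGF1R and IRS2). IGFBP4, IGFBP6 and IGFBP7 then had log2 fold changes of 0.48, 0.51 and 0.54, under the fold limit but above that median.

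IGFBP3, the main carrier of IGFs in blood, showed the largest change. Its FPKM was 131, 151 and 155 in the MRC5_Mo libraries, 230.1, 219 and 246 in MRC5_coH69 and 2618, 2666 and 2852 in MRC5_coH196. No library of MRC5_coH196 came near those of the other groups, and the MRC5_coH69 libraries were all above MRC5_Mo. Against MRC5_Mo the log2 fold change was 4.39 with H196 (SE 0.060, 21.0-fold, edgeR adjusted p = 1.42e-26), the 37th highest of 12819 genes, and 0.68 with H69 (SE 0.054, edgeR adjusted p = 6.16e-09). Among the genes of the table, IGFBP3 moved by mean FPKM from rank 590 in MRC5_Mo to rank 359 in MRC5_coH69 and rank 21 in MRC5_coH196. IGFBP1, its neighbour on chromosome 7, had 0 to 2 counts in each MRC5_coH196 library.

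The other binding proteins moved far less than IGFBP3 in MRC5. IGFBP4, which restrains IGF action until PAPPA cleaves it, had 718, 659 and 704 FPKM in MRC5_Mo, 779, 782 and 803 in MRC5_coH69 and 1012, 976 and 919 in MRC5_coH196. The 3 groups did not overlap, and IGFBP4 changed by 0.65 on the log2 scale with H196 (SE 0.044) and by 0.19 with H69 (SE 0.044). IGFBP7, which binds IGFs weakly, had 552, 549 and 514 FPKM in MRC5_Mo, 712, 729 and 675 in MRC5_coH69 and 771, 779 and 782 in MRC5_coH196. It changed by 0.72 with H196 (SE 0.042) and by 0.38 with H69 (SE 0.042).

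IGFBP6, which prefers IGF2, had 129, 119.7 and 129 FPKM in MRC5_Mo, 177, 184 and 186 in MRC5_coH69 and 180.5, 185 and 175 in MRC5_coH196. Both co-cultures were above MRC5_Mo and overlapped each other. IGFBP6 changed by 0.69 with H196 on the log2 scale (SE 0.047) and by 0.53 with H69 (SE 0.047), the latter under the fold limit. IGFBP2 was the sole member to fall, with 6.65, 5.44 and 5.79 FPKM in MRC5_Mo, 5.92, 5.0 and 4.74 in MRC5_coH69 and 3.23, 3.40 and 3.13 in MRC5_coH196. The MRC5_coH196 libraries held 59 to 69 counts of IGFBP2 against 103 to 126 in MRC5_Mo, and the log2 fold change was -0.65 (SE 0.134, edgeR adjusted p = 1.23e-04). Without MRC5_Mo replicate 1, IGFBP2 had a log2 fold change of -0.55 and was no longer a DEG.

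IGFBP5, a matrix-bound binding protein and the neighbour of IGFBP2 on chromosome 2, had a different order of groups. Its FPKM was 758, 672 and 649 in MRC5_Mo, 1045, 987 and 1065 in MRC5_coH69 and 721, 749 and 774 in MRC5_coH196. MRC5_coH69 was highest in every library, while MRC5_coH196 and MRC5_Mo overlapped. The log2 fold change was 0.59 with H69 (SE 0.049, edgeR adjusted p = 1.09e-08) and 0.28 with H196 (SE 0.049, edgeR adjusted p = 1.18e-05), and with library totals alone the latter was 0.11. Compared between partners, IGFBP5 was lower with H196 than with H69 by a log2 fold change of -0.30 (edgeR adjusted p = 5.28e-06), under the fold limit.

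Because IGFBP3 rose far above the rest, the make-up of the IGFBP messages changed. IGFBP3 supplied 5.72, 7.01 and 7.19% of the summed FPKM of IGFBP2 to IGFBP7 in the MRC5_Mo libraries, 7.80, 7.52 and 8.24% in MRC5_coH69 and 49.3, 49.8 and 51.8% in MRC5_coH196. The share of IGFBP5 was 31.4% ± 1.49 (SD, n = 3) in MRC5_Mo, 35.05% ± 0.952 in MRC5_coH69 and 13.9% ± 0.256 in MRC5_coH196, and that of IGFBP4 was 31.5% ± 1.04, 26.8% ± 0.312 and 18.0% ± 1.21. Against MRC5_Mo, both genes had a smaller share with H196 without a lower mean FPKM, whereas the FPKM of IGFBP5 with H196 was below that with H69. The summed FPKM of the 6 genes was 2203 ± 64.7 in MRC5_Mo, 2945 ± 30.5 in MRC5_coH69 and 5390.0 ± 84.7 in MRC5_coH196, and their counts made up 0.644%, 0.902% and 1.35% of each library on average. The share of IGFBP3 differed between MRC5_coH196 and each other MRC5 group with p = 0.1 in two-sided exact permutation tests, the smallest p that 3 against 3 libraries allow. The ratio of IGFBP3 to IGFBP5 FPKM was 0.212 ± 0.0347 in MRC5_Mo, 0.224 ± 0.00575 in MRC5_coH69 and 3.62 ± 0.0632 in MRC5_coH196.

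**Figure D3:**
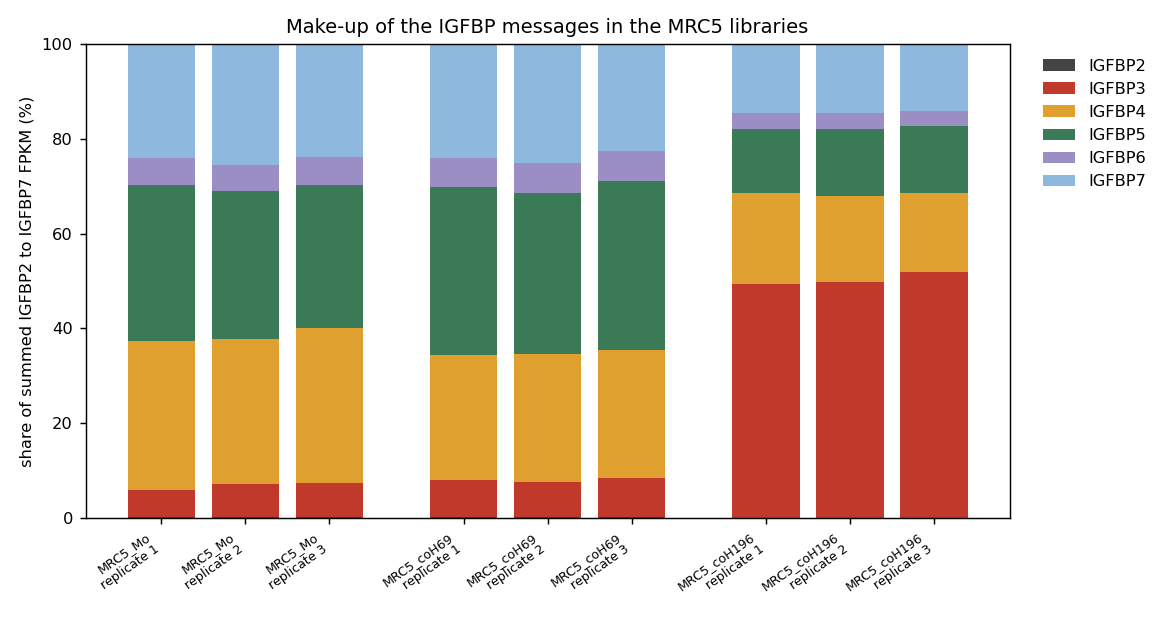
Share of each IGFBP gene in the summed FPKM of IGFBP2 to IGFBP7, in percent, for every MRC5 library. IGFBP3 fills 49.3 to 51.8% of each MRC5_coH196 bar and at most 8.24% of the others, and IGFBP2, under 0.3%, is too small to be seen.

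IGF2, the ligand of the set, rose in all 3 co-culture comparisons. Its FPKM was 17.9, 15.4 and 15.4 in MRC5_Mo, 25.2, 25.1 and 22.6 in MRC5_coH69 and 44.6, 42.4 and 43.6 in MRC5_coH196. In H196 it was 7.25, 8.21 and 7.27 in mono-culture and 11.97, 11.77 and 11.72 in co-culture. The order of the 5 groups was MRC5_coH196, MRC5_coH69, MRC5_Mo, H196_Co and H196_Mo, and no neighbours in that order overlapped. IGF2 had a log2 fold change of 1.59 in MRC5 with H196 (SE 0.057, edgeR adjusted p = 4.25e-18), 0.59 with H69 (SE 0.058, edgeR adjusted p = 1.59e-07) and 0.71 in H196_Co (SE 0.078, edgeR adjusted p = 1.79e-06).

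IGF1R, the signalling receptor, had 8.60, 8.19 and 8.89 FPKM in MRC5_Mo, 9.33, 9.62 and 10.2 in MRC5_coH69 and 12.6, 12.5 and 13.1 in MRC5_coH196. The groups kept apart in that order. Its counts rose more than its FPKM, from 1251 to 1352 in MRC5_Mo and 1533 to 1563 in MRC5_coH69 to 2658 to 2921 in MRC5_coH196, a log2 fold change of 1.25 with H196 (SE 0.047, edgeR adjusted p = 1.42e-17) and of 0.25 with H69 (SE 0.049). The mean FPKM was 1.49 times that of MRC5_Mo, where the counts gave 2.38-fold, and limma on log2(FPKM + 1) gave 0.52, under the fold limit. FPKM uses a gene length averaged over the transcripts that the reads were assigned to. The length implied by counts and FPKM was 8.15 ± 0.216 kb (SD, n = 3) in MRC5_Mo, 8.47 ± 0.359 kb in MRC5_coH69 and 11.5 ± 0.0705 kb in MRC5_coH196, close to 11.5 ± 0.00449 kb in H196_Mo and 11.6 ± 0.0890 kb in H196_Co. No other member with enough counts shifted in this way, and IGF2R stayed at 13.8 kb in every group. Counts and FPKM therefore answer different questions for IGF1R, and which transcripts were present was not measured.

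**Figure D4:**
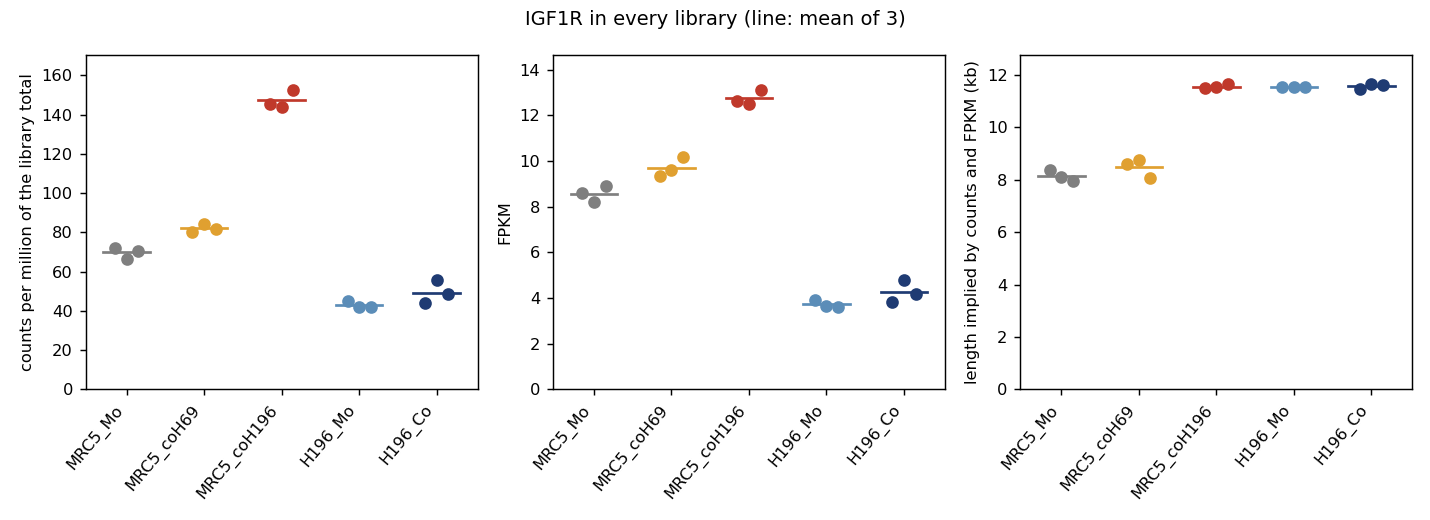
IGF1R in every library as CPM, FPKM and the gene length in kb implied by both, with lines for the mean of 3 and axes from 0. The implied length is 7.96 to 8.74 kb in MRC5_Mo and MRC5_coH69 and 11.5 to 11.6 kb in the 9 other libraries.

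IGF2R, the clearing receptor, was a DEG in none of the 6 comparisons. It had 23.2, 22.9 and 22.6 FPKM in MRC5_Mo, 22.7, 22.3 and 22.7 in MRC5_coH69 and 25.5, 25.1 and 25.5 in MRC5_coH196. MRC5_coH196 was above the other MRC5 groups in every library, with a log2 fold change of 0.32 (SE 0.039, edgeR adjusted p = 7.24e-08) that stayed under the fold limit, and that of MRC5_coH69 was -0.01 (95% interval -0.08 to 0.07). The ratio of mean IGF2R to mean IGF1R FPKM was 2.68 in MRC5_Mo, 2.33 in MRC5_coH69 and 1.99 in MRC5_coH196.

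IRS2, a docking protein for IGF1R and the insulin receptor, rose with H196 and did not pass the test with H69. Its FPKM was 3.19, 3.09 and 3.84 in MRC5_Mo, 3.40, 3.29 and 3.30 in MRC5_coH69 and 12.98, 12.03 and 13.37 in MRC5_coH196. The last group was well apart, and the first 2 overlapped. The change on the log2 scale was 2.1 with H196 (SE 0.065, 4.29-fold, edgeR adjusted p = 2.43e-19) and 0.00 with H69 (95% interval -0.15 to 0.15), and 2.1 between the partners (edgeR adjusted p = 2.95e-19). IRS2 counts were not whole numbers in 11 libraries, so some of its reads were shared with another gene, and the counts of all other members were whole.

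In culture with H69, few genes of the transcriptome changed. In MRC5_coH69 against MRC5_Mo, IGFBP3, IGF2 and IGFBP5 were DEGs, all higher, 3 of 10 where 0.554% of the 12819 genes tested were called and 0.421% were called higher. IGF2 and IGFBP5, both at 0.59, were close to the fold limit. With an adjusted p under 0.05 and no fold limit, 7 of 10 members passed, where 6.7% of all genes did. FPKM values of both groups were fully apart for 7 of 10 members, and for 24.3% of all genes. The median log2 fold change of the 10 members was 0.32. These shares are descriptive, since the members were chosen with earlier results of these data known. Without MRC5_Mo replicate 2 or 3 or MRC5_coH69 replicate 1, IGF2 and IGFBP5 dropped under the fold limit and 1 member, IGFBP3, was called, and the same held with library totals alone. This comparison and that of MRC5_coH196 share the MRC5_Mo libraries.

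The difference between the partners was tested directly. In MRC5_coH196 against MRC5_coH69, IGFBP3, IRS2, IGF1R and IGF2 were DEGs, all higher with H196, 4 of 10 where 28.2% of genes were called and 15.2% were called higher. Across all genes the DEGs split into 1943 higher and 1675 lower, and into 1369 and 2627 with library totals alone. The log2 fold change was 3.71 for IGFBP3 (SE 0.058, edgeR adjusted p = 2.37e-25), 2.1 for IRS2, 1.0 for IGF1R (SE 0.047, edgeR adjusted p = 1.21e-15) and 0.998 for IGF2 (SE 0.055, edgeR adjusted p = 2.97e-14). For IGF1R it was 0.36 with limma on log2(FPKM + 1), under the fold limit. IGFBP4 at 0.46, IGFBP7 at 0.34 and IGF2R at 0.33 were higher with H196 under the fold limit, and IGFBP2 at -0.52 was lower. IGFBP2 became a DEG with library totals alone (-0.67) and with limma on log2(FPKM + 0.1). IGFBP6 differed by 0.15, a sign that turned to -0.01 with library totals alone and to -0.02 on the FPKM scale.

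H196 cells showed a small response of the same axis. In H196_Co against H196_Mo, 7 members passed the filter on low counts, and IGFBP3, IGFBP2 and IGF2 were DEGs, all higher, where 3.86% of the 12806 genes tested were called and 3.26% were called higher. Across all genes the DEGs split into 417 higher and 77 lower, and into 320 and 141 with library totals alone. IGFBP5 and IRS2 were too low to be tested. IGFBP3 had 14, 6 and 10 counts in H196_Mo and 33, 20 and 20 in H196_Co, groups that did not overlap, with a log2 fold change of 1.34 (SE 0.336, edgeR adjusted p = 0.00845). IGFBP2 had 3, 11 and 6 counts in H196_Mo and 15, 15 and 13 in H196_Co, with a log2 fold change of 1.16 (SE 0.393, edgeR adjusted p = 0.0427). Both genes passed the filter through their H196_Co counts, and neither was tested when 10 counts were required in every library. Without H196_Co replicate 1 the adjusted p was 0.0655 for IGFBP3 and 0.106 for IGFBP2, and IGFBP2 was lost without each H196 library but H196_Mo replicate 2. IGF2, at 504 to 883 counts, kept its call under every alternative but a fold limit of 1.

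IGF1R had 723, 731 and 723 counts in H196_Mo and 759, 936 and 819 in H196_Co, a log2 fold change of 0.28 (SE 0.081, edgeR adjusted p = 0.0210) under the fold limit. IGFBP4 differed by 0.39 (95% interval -0.03 to 0.81), IGFBP6 by 0.12 (-0.41 to 0.65) and IGF2R by -0.05 (-0.20 to 0.10), and none of these passed the test. By share of the FPKM of IGFBP2 to IGFBP6, IGFBP6 led with 48.8% ± 5.10 (SD, n = 3) in H196_Mo and 37.0% ± 4.19 in H196_Co. IGFBP4 followed with 32.4% ± 5.75 and 29.3% ± 4.05. The IGFBP6 share rests on 14 to 21 counts per library. By counts, not corrected for length, IGFBP4 led with 49.2% in H196_Mo and 42.3% in H196_Co.

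RNA of MRC5 in the H196 libraries was looked for with 219 genes at 20 CPM or more in every MRC5_Mo library. Each was under 0.5 CPM in every H196_Mo library or not listed there. They summed to 15.6 to 16.1 CPM in H196_Mo and 19.01 to 21.14 CPM in H196_Co, at most 0.0448% of their MRC5_Mo level. IGFBP3 in H196_Co stood at 0.0226% of its MRC5_coH196 CPM. IGFBP5 had 1 count summed over H196_Co beside 73 of IGFBP3, whereas MRC5_coH196 held 1.42 IGFBP3 counts for each IGFBP5 count. The part of such RNA in the IGFBP3 rise of H196_Co was not tested further.

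Whether both lines responded alike was tested as the response of MRC5 to H196 minus that of H196 to MRC5, in the fit of all 15 libraries. The test called IGFBP3, IRS2, IGF1R, IGF2 and IGFBP2, 5 of 9 members where 24.7% of 13585 genes were called. The difference in log2 fold change was 3.02 for IGFBP3 (SE 0.428, edgeR adjusted p = 1.26e-06), 2.49 for IRS2 (SE 0.554, edgeR adjusted p = 4.41e-04), 0.95 for IGF1R (SE 0.091, edgeR adjusted p = 1.61e-09) and 0.86 for IGF2 (SE 0.097, edgeR adjusted p = 3.25e-08). For IGFBP2 it was -1.83 (SE 0.384, edgeR adjusted p = 2.30e-04), the sole member that fell in MRC5 and was higher in H196_Co. IRS2 entered this test with 2 to 7 counts in each H196 library, and IGFBP2 and IGFBP3 with the low counts given above. With 10 counts required in every library, these 3 genes were not tested, and IGF1R and IGF2 were called. On the log2(FPKM + 1) scale the difference for IGF1R was 0.37, under the fold limit. IGF2R differed by 0.34 (edgeR adjusted p = 9.40e-04) under the fold limit, while IGFBP4 (0.24) and IGFBP6 (0.54) did not pass the test. IGFBP5 is among the 9 and was not called. Its fitted difference is not given, since it had 0 or 1 counts in each H196 library.

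The other genes of the pathway were taken from a list of 40 genes by role, also chosen with earlier results known. In MRC5_coH196 against MRC5_Mo, 32 were tested, of which 13 rose and 1 fell. Of all genes, 31.9% were called, 17.2% higher and 14.7% lower. The median log2 fold change of the list was 0.42. These calls rest on TMM scaling, and calls of the list under library totals alone, which moved the median of all genes to -0.18, are not given. The rises nearest the fold limit were SOS1 (0.584), LRP1 (0.68) and FOXO4 (0.74). In MRC5_coH69, 0 of the 32 were DEGs by edgeR, beside 0.554% of all genes. An adjusted p under 0.05 was reached by 3, beside 6.7% of all genes. In H196_Co, 3 of 30 were DEGs, all higher, beside 3.86% of all genes called and 3.26% called higher.

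Among the proteases of IGFBPs and their inhibitors, 5 of 7 were higher in MRC5_coH196, where 17.2% of all genes were called higher. STC1 and STC2, secreted stanniocalcins that inhibit PAPPA, rose in both lines. STC2 had 105, 103 and 102 FPKM in MRC5_Mo and 284, 281 and 286 in MRC5_coH196, and 5.02, 4.67 and 5.0 in H196_Mo and 16.7, 14.4 and 15.4 in H196_Co. Its log2 fold change was 1.63 in MRC5 (SE 0.042, edgeR adjusted p = 5.23e-21) and 1.74 in H196 (SE 0.085, edgeR adjusted p = 7.34e-12). STC1 had 9.97, 10.81 and 11.01 FPKM in MRC5_Mo and 54.2, 54.0 and 60.3 in MRC5_coH196, a log2 fold change of 2.58 (SE 0.055, edgeR adjusted p = 1.50e-22), and in H196_Co it changed by 0.584, close to the fold limit. PAPPA2, which cleaves IGFBP3 and IGFBP5, rose by 1.73 on the log2 scale from a low level (5 to 11 counts in MRC5_Mo and 22 to 32 in MRC5_coH196). The other two were proteases, named after their values were seen. PAPPA itself rose from 9.01 ± 0.718 FPKM (SD, n = 3) to 14.5 ± 0.530, a log2 fold change of 0.87, and HTRA1, a secreted serine protease, from 61.0 ± 3.13 to 114.8 ± 8.88, a log2 fold change of 1.09.

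Among receptors 2 of 3 were higher in MRC5_coH196, where 17.2% of all genes were called higher. INSR, the insulin receptor, had 1.01, 1.0 and 1.24 FPKM in MRC5_Mo and 2.62, 2.56 and 2.65 in MRC5_coH196, a log2 fold change of 1.44 (SE 0.086, edgeR adjusted p = 1.21e-13). In H196_Co it changed by 0.38 (edgeR adjusted p = 0.00713), under the fold limit. LRP1, an endocytic receptor that also binds IGFBP3, rose by 0.68. Of 7 adaptors 2 rose, beside the same 17.2% of all genes. They were SH2B2, which binds the insulin receptor, at 1.88 and SOS1, a Ras exchange factor, at 0.584 on the log2 scale, close to the fold limit. SH2B2 also rose in H196_Co, by 0.79. IRS1, the docking protein beside IRS2, had 22.04 ± 0.386 FPKM (SD, n = 3) in MRC5_Mo and 18.7 ± 0.538 in MRC5_coH196, a log2 fold change of -0.07 (SE 0.040, edgeR adjusted p = 0.139). In H196_Co IRS1 changed by -0.45 (edgeR adjusted p = 9.24e-04), under the fold limit.

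Of the 11 PI3K, AKT and FOXO genes tested in MRC5, 2 rose with H196 and 1 fell, beside 17.2% higher and 14.7% lower of all genes. PIK3R3, a regulatory subunit of PI3K, fell from 5.01, 4.98 and 4.91 FPKM to 0.65, 0.80 and 0.62, a log2 fold change of -2.71 (SE 0.102, edgeR adjusted p = 1.29e-17). FOXO3 and FOXO4, transcription factors held in check by AKT, rose by 0.99 and 0.74 on the log2 scale. Among the 3 IGF2 mRNA-binding proteins, IGF2BP2 alone was called, higher by 0.77, beside the same 17.2% of all genes. IGFBPL1, an IGFBP-like protein, had 4, 1 and 0 counts in MRC5_Mo and 14, 17 and 15 in MRC5_coH196, a log2 fold change of 3.26 (SE 0.542) in a gene that passed the filter through MRC5_coH196. Its FPKM in MRC5_coH196 was 9.87% of that in H196_Co. The 99 H196 genes above, as a sum, stood at no more than 0.777% of their H196_Mo CPM, which is another measure and reference group. The part of H196 RNA in the IGFBPL1 counts was not tested.

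**Figure D5:**
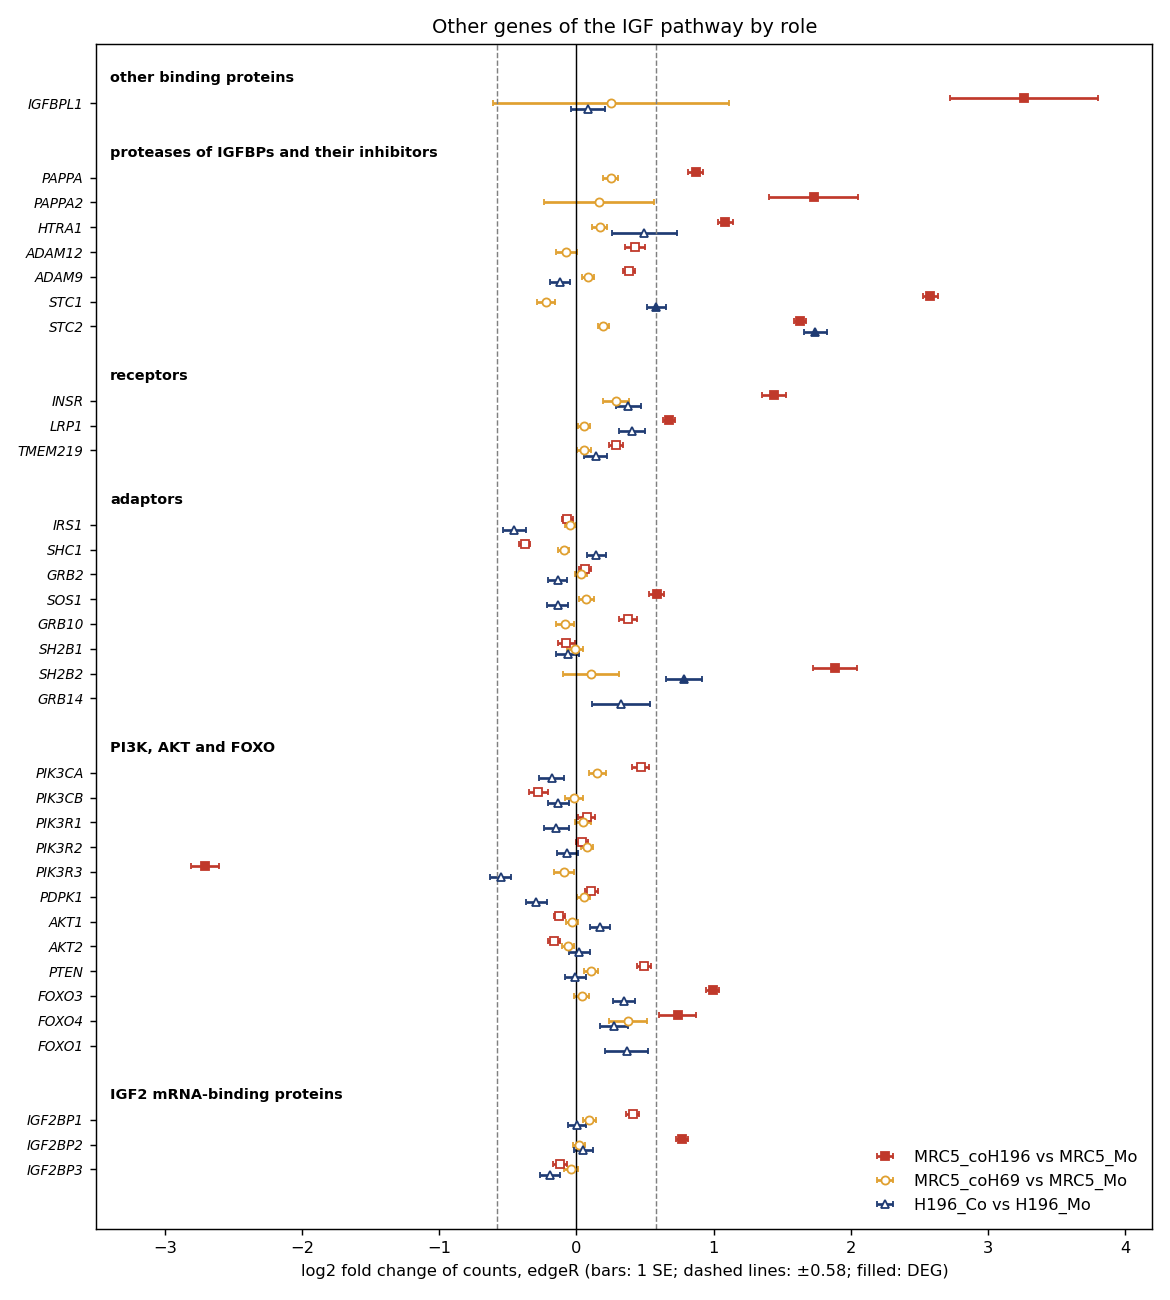
Log2 fold change of counts for the other pathway genes by role, in 3 comparisons with the mono-culture, with bars of 1 SE and filled symbols for DEGs. In MRC5 with H196, 13 genes lie above the limit of 0.58 as DEGs and PIK3R3 is the sole DEG that fell, and with H69 no symbol is filled.

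The genes with the profile most like each member were those with the smallest root mean square (RMS) difference in centred log2 CPM over the 15 libraries, a measure that the gap between the lines dominates. IGFBP3 had no close match: LOX, a collagen cross-linking enzyme, at 0.88 and PSG5 at 0.89 came nearest, and PSG5 belongs to a family of similar genes whose reads can be split. LOX rose from 110.3 ± 5.28 FPKM (SD, n = 3) in MRC5_Mo to 151 ± 3.41 in MRC5_coH69 and 644 ± 27.1 in MRC5_coH196, with the order of groups that IGFBP3 showed in MRC5. IGFBP5 came nearest to the collagen genes COL1A2 (0.44) and COL6A3 (0.77), and IRS2 to HAS2 (0.34) and KISS1 (0.39). Not all of these genes moved like their member in co-culture. COL1A2 went from 1974 ± 137 FPKM in MRC5_Mo to 1191 ± 36.8 in MRC5_coH196, and HAS2 from 14.9 ± 2.49 in MRC5_Mo to 10.3 ± 0.541 in MRC5_coH69. Closer matches were CDH6 (0.18) and TMEM47 (0.23) for IGFBP4 and EDIL3 (0.18) and OXTR (0.24) for IGFBP6. CCN1 (0.18) and SMAD9 (0.21) came nearest to IGF2, and CDC42EP1 (0.27) and TUBA1A (0.28) to IGFBP2. OXTR, unlike IGFBP6, stood at 53.4 ± 3.84 FPKM in MRC5_Mo, 52.1 ± 3.06 in MRC5_coH69 and 55.2 ± 2.46 in MRC5_coH196. IGF1R lay at 0.10 from NMT2 and 0.11 from LRCH2, and IGF2R at 0.05 from KDM2A and 0.06 from USP9X, in regions where 115 and 1574 genes lay within 0.25.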

How the data were processed

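Poly(A) RNA of 15 libraries, grouped by their titles, was sequenced by the authors, who cleaned the reads with SOAPnuke. The submitters' processing notes name GRCh38.p13, HISAT2 2.1.0, Bowtie2 2.3.4.3 and RSEM 1.3.1. The authors deposited expected counts per gene, not normalized, of which 93.7% (MRC5) and 92.1% (H196) are whole. The deposited FPKM values were computed by the authors to 2 decimals. Another 30 per-library columns (TPM and normalized counts) and the authors' own comparisons (fold changes, p-values and q-values) were not used.

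Counts were rounded and tested in R 4.3.3 with edgeR 4.0.16 (TMM, filterByExpr, quasi-likelihood, two-sided, Benjamini-Hochberg over all genes) on 9 MRC5, 6 H196 or all 15 libraries. SE was taken as |log2 fold change| over √F, with 95% intervals from it. CPM uses library totals. The pipeline was tested on simulated data. Alternatives were DESeq2 1.42.0, limma 3.58.1 on FPKM with a pseudocount of 1 or 0.1 (log2), stricter or no filters, fold limits, scalings, a replicate block and each library left out. Levels between genes are compared in FPKM only.

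Each member is named in every comparison that tested it, IGFBP5 without a fold change in the fits of all 15 libraries. Pathway genes are named where they were DEGs with H196 or in H196_Co (at most 3 per role), besides IGF1, INSR and IRS1, and 2 nearest profiles per member. HTRA1 and PAPPA fell outside that number and were added after their values were seen. An item of the pathway list is not reported here and was left out of its counts. Members and lists were chosen with earlier results of these data known. Genes on the Y chromosome were left out of the profiles. The limit that a count of 0 allows covers counting error only. The exact permutation test of 3 against 3 libraries cannot go below p = 0.1.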

Additional observations from a re-analysis of the deposited data

Results flagged for a closer look

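The response of MRC5 differed between its partners for 4 members, by the direct test of MRC5_coH196 against MRC5_coH69. The log2 fold change was 3.71 for IGFBP3, 2.1 for IRS2, 1.0 for IGF1R and 0.998 for IGF2, each higher with H196 in 3 of 3 libraries (edgeR adjusted p from 2.37e-25 to 2.97e-14). For IGF1R the same difference was 0.36 on the log2(FPKM + 1) scale.

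The response of MRC5 to H196 differed from that of H196 to MRC5 for 5 members, by the interaction term. The difference in log2 fold change was 3.02 for IGFBP3, 2.49 for IRS2, 0.95 for IGF1R, 0.86 for IGF2 and -1.83 for IGFBP2 (edgeR adjusted p from 1.61e-09 to 4.41e-04). IGFBP2 was lower in MRC5_coH196 and higher in H196_Co, and had 3 to 15 counts in each H196 library. Its call in H196_Co was lost under most alternatives, and with 10 counts required in every library IGFBP2, IGFBP3 and IRS2 were not tested. For IGF1R the difference was 0.37 on the log2(FPKM + 1) scale, under the fold limit.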

How the results depend on the processing

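Of the log2 fold changes that members had under the alternatives, 962 kept their direction and their side of the limits, 40 were no longer DEGs, 2 became DEGs and 9 turned sign. With H196, the count of 8 members called in MRC5 became 4 with limma on log2(FPKM + 1), on log2(FPKM + 0.1) or with a fold limit of 1, 5 with library totals without TMM (chosen after seeing the data), and 7 to 8 with a library left out. With H69, the count of 3 became 1 with limma on log2(FPKM + 1) or library totals, 0 with a fold limit of 1, 7 with no fold limit, and 1 to 3 with a library left out. Between the partners, 4 became 3 with limma on log2(FPKM + 1) (IGF1R lost) or a fold limit of 1 (IGF2 lost). With limma on log2(FPKM + 0.1) the count stayed at 4, with IGF1R lost and IGFBP2 gained. The count became 5 with library totals and 10 with no fold limit, for which the share of all genes is not given here. Over all genes, the 4092 (H196), 71 (H69) and 3618 (partners) DEGs became 2997, 18 and 2567 with limma on log2(FPKM + 1). With library totals they became 4508, 67 and 3996. In H196_Co, 3 became 1 with limma on log2(FPKM + 1) or with 10 counts required in every library, and 1 to 3 with a library left out. Over all genes, the 494 DEGs of H196_Co became 195 with limma on log2(FPKM + 1) and 455 with 10 counts required. The interaction count of 5 became 2 with that filter, which left 5 members tested, and 3 with a fold limit of 1. It became 4 with limma on either FPKM scale (IGF1R lost). The count of 8 between mono-cultures became 4 with that filter. Over all genes, the filter took 3357 DEGs to 2863 for the interaction and 8379 to 6168 between mono-cultures. The share of IGFBP3 by counts, not corrected for length, was 5.31% in MRC5_Mo, 5.96% in MRC5_coH69, 46.6% in MRC5_coH196, 15.1% in H196_Mo and 24.2% in H196_Co. Signs turned for values near 0: with H69, IGF2R ranged from -0.0193 to 0.00204 and IRS2 from -0.0656 to 0.10 with a library left out, and IRS2 was 0.000782 with the replicate block. IGFBP6 between the partners became -0.0181 and -0.0182 with limma on FPKM + 1 and + 0.1 and -0.00655 with library totals, and IGF2R in H196_Co ranged from -0.105 to 0.0336 with a library left out. Libraries with the same replicate number had correlations of -0.151 to 0.081 in their deviations, and those with different numbers -0.145 to 0.196. No pairing by number was seen, but with 3 libraries per group this check cannot rule it out. A replicate block left the counts at 8, 3 and 4 in MRC5 and gave 2 in H196_Co, where IGFBP2 had an edgeR adjusted p of 0.0574. Causes of these shifts were not tested. Depth limits the H196 values of IGFBP2, IGFBP3 and IRS2, which rest on 2 to 33 counts per library.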
